A study of Rattus norvegicus with 12 samples.

Results

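Arginine withdrawal was examined in normal rat liver epithelial cells, using the 6 arrays of WB-F344 cells among the 12 arrays of the series. The members were chosen by label alone: 3 arrays of arginine-deficient (-) normal cells and 3 arrays of arginine-sufficient (+) normal cells, with neighbouring title numbers taken as 1 experiment. WB-F344 is a diploid epithelial line from rat liver (an adult male of the Fischer-344 strain), and the cells were of low passage. Cultures at about 80% confluence were moved from serum-containing growth medium to a custom Chee's Essential Medium with 5% fetal bovine serum, and the (+) cultures received L-arginine HCl at 0.168 g per litre while the (-) cultures received none. After 18 h total RNA was hybridized to RAE 230A arrays, which hold 15923 probe sets. Both groups thus shared the change of medium and the serum, and because the serum was not dialyzed the (-) medium was low in arginine but not free of it. The model was a single cell line, so the 3 experiments are independent cultures of that line and not separate animals. The other 6 arrays held hepatic tumor cells under the same 2 conditions. They serve here for comparison and in the estimate of the spread, which the tests of normal cells share with them.

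Arginine is used for protein synthesis and is the source of urea cycle intermediates, polyamines, creatine and nitric oxide. When a cell runs short of an amino acid, uncharged transfer RNA activates the kinase GCN2, which phosphorylates the translation factor eIF2alpha, and translation of the transcription factor ATF4 then increases. ATF4 acts with C/EBP partners on genes for amino acid transporters, amino acid synthesis, transfer RNA charging and stress regulation. Cholesterol synthesis is run by a separate system, in which SREBP factors are carried by SCAP out of the endoplasmic reticulum when sterols are low and are held there by INSIG proteins when sterols are high.

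The label was checked against marker genes. Of 13 hepatocyte markers on the array only Apob, the apolipoprotein of secreted lipoproteins, reached the expressed range (the highest 54% of an array's signals) in at least 3 of the 6 arrays, and albumin (Alb) and the hepatocyte factor Hnf4a reached it in 0 of 6. Of 9 biliary and simple epithelial markers 4 did so, the keratins Krt7 and Krt8 and Gstp1 in 6 of 6 arrays and Krt14 in 4. Krt18, Krt19, Epcam, Cdh1 and Cldn4 were in the expressed range in 0 of 6. Of 9 mesenchymal markers 6 reached it in at least 3 arrays. Vim, Col1a1, Col3a1, Acta2 and Cdh2 were in that range in 6 of 6 and Des in 5, while Thy1, Pdgfra and Pdgfrb were in 0 of 6. Of 7 leukocyte markers 2 passed, Cd14 and Cd4, and of 4 endothelial markers only Flt1 did, with Ptprc and Pecam1 in 0 of 6 arrays. The profile held keratins and fibroblast-type matrix genes, and of the hepatocyte markers only Apob, close to the edge of the expressed range, so the cells are called liver epithelial cells here and not hepatocytes. The summed signal of the 13 hepatocyte markers ran from 1014.8 to 1140.2 with arginine and from 769 to 1002 without it. That of the 9 mesenchymal markers ran from 51255 to 68708 and from 40399 to 55098, and that of the 4 endothelial markers from 463 to 1006 and from 181 to 524. The part of these shifts in the results was not tested. Krt8 was the only marker that passed the test below. Its signals were 3970.4, 7042 and 6794 with arginine and 2159, 5589 and 3876 without it, a fall of 1.6-fold (limma adjusted p = 0.0146).

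The values are MAS 5.0 signals, and each set of 3 signals is given in the order of experiments 1, 2 and 3. A log2 change is the mean over the 3 experiments of the (-) minus the (+) log2 signal. Its standard error (SE) comes from a limma fit with the experiment as a block. The fit draws each SE toward the value usual at that intensity, so an SE is not the spread between experiments alone. Of 8786 probe sets in the expressed range in at least 3 arrays of normal cells, 152 rose without arginine (1.73%) and 112 fell (1.27%) at an adjusted p under 0.05. They represented 122 genes that rose and 103 that fell, and 28 called probe sets had no symbol or several. At least 2-fold changes were found for 53 probe sets that rose and for 31 that fell. A change of 2-fold or more in each of the 3 experiments was found for 7 that rose and 2 that fell. Of those that rose, 5 reached the expressed range only without arginine, and of those that fell 5 reached it only with arginine. All (-) signals lay above all (+) signals for 119 of the 152 that rose, against 6.37% of all probe sets tested, and below them for 74 of the 112 that fell, against 7.46%. These counts follow from the same contrast as the calls and only describe them.

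The 3 experiments did not respond equally. Among probe sets that rose, the median log2 change was 1.11 in experiment 1, 0.55 in experiment 2 and 0.91 in experiment 3, and among those that fell it was -1.0, -0.44 and -0.94. Experiment 2 gave the smallest change of the 3 for 119 of the 152 that rose and for 92 of the 112 that fell. The spread of changes over all probe sets was also narrower in experiment 2, with an SD of 0.35 against 0.53 and 0.48. Part of the gap lay in the (+) culture: for 70 of the 152 that rose (46.1%) the (+) signal of experiment 2 was the highest of its group, against 31.3% over all probe sets tested. The (-) culture differed more, being the lowest of its group for 102 of the 152 (67.1%, against 35.6% over all). The (+) array of experiment 2 was the only array of normal cells scanned on a day of its own and from a chip lot of its own, and its part in the smaller response was not tested. Without experiment 2 the counts were 264 that rose and 207 that fell. They dropped to 16 and 0 without experiment 1, to 19 and 1 without experiment 3, and to 101 and 60 without tumor experiment 2, which shares only the estimate of the spread. The 6 arrays of normal cells alone gave 126 and 83, and all 12 arrays without the experiment as a block gave 8 and 1. Centring each array on its median gave 197 and 65, so the share of calls that rose was 75.2% on that scale against 57.6% here. The ratio of 3' to 5' signal, a measure of RNA quality, was 1.25, 1.15 and 0.998 for Gapdh with arginine and 1.38, 1.17 and 1.01 without it, higher without arginine in each experiment. For Actb it was 1.1, 1.16 and 1.14 with arginine and 1.41, 1.11 and 1.0 without it, so the (-) array of experiment 1 stood highest on both, and the part of RNA quality in the results was not tested.

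Among the gene lists, the stress arm of the ATF4 pathway had the largest median rise. Of 29 regulators and stress targets listed, 22 were tested, and 16 rose, 0 fell and 20 were higher in all 3 experiments, with a median log2 change of 0.95. Over all 6547 genes tested, taken with 1 probe set each, 1.74% rose and 1.5% fell, and the median was -0.04. Of these genes, 1137 were higher and 1552 lower in all 3 experiments, and 3619 had a change below 0. A gene may stand in more than 1 list, and Cth, Sqstm1, Cars1 and Sars1 are counted here as well as below. Trib3, a pseudokinase that binds ATF4 and restrains it, had signals of 457, 575 and 475 with arginine and 3627, 1413 and 2447 without. Every (-) culture stood well above every (+) culture, most of all in experiment 1. The rise was 4.65-fold (log2 change 2.22 ± 0.23 SE, adjusted p = 0.00071), and both other probe sets for Trib3 rose as well, by 4.35-fold and 3.63-fold. Nupr1, a small stress-induced chromatin protein, went from 568, 731 and 745 to 4223, 1837 and 2511. The groups were far apart, and the rise was 3.98-fold (1.99 ± 0.23, adjusted p = 0.00129). Herpud1, an endoplasmic reticulum membrane protein that takes part in degradation of misfolded proteins, went from 457, 725 and 763 to 2296, 1315 and 2229, without overlap, a rise of 2.99-fold (1.58 ± 0.21, adjusted p = 0.00372).

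Of the 7 transcription factors tested in this list 5 rose, Nupr1 among them. Atf4 itself had signals of 5002, 7198 and 4652 with arginine and 8450.4, 9098 and 7698 without. The groups did not overlap, but the rise was only 1.52-fold (0.61 ± 0.12, adjusted p = 0.026). Atf5 rose 2.14-fold, Cebpg, a C/EBP partner of ATF4, rose 2.09-fold, and Ddit3, which encodes the CHOP factor, rose 1.99-fold. For Ddit3 the change was 1.80 in experiment 1 and only 0.29 in experiment 3, and its (+) signal of 757 in experiment 3 lay above the (-) signal of 444 in experiment 2. Cebpb and Jdp2 had log2 changes of 0.19 and 0.28 and did not pass. Among the remaining targets Chac1, which degrades glutathione, rose 2.61-fold, Vegfa, the angiogenic growth factor, rose 2.55-fold, and Ppp1r15a, which directs dephosphorylation of eIF2alpha, rose 1.98-fold. Eif4ebp1, a repressor of cap-dependent translation, rose 1.75-fold, and Ddit4, an inhibitor of mTORC1, rose 1.82-fold. The kinases upstream, Eif2ak4 (GCN2) and Eif2ak3 (PERK), had log2 changes of -0.07 and 0.03. Stc2 and Vldlr had changes of 0.91 and 1.23 but did not pass (adjusted p = 0.18 and 0.166). The number of members that rose was 15 without experiment 2, 5 without experiment 1 and 5 without experiment 3, 5 with scan day in place of the pairs, and 4 with no pairing.

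**Figure D1:**
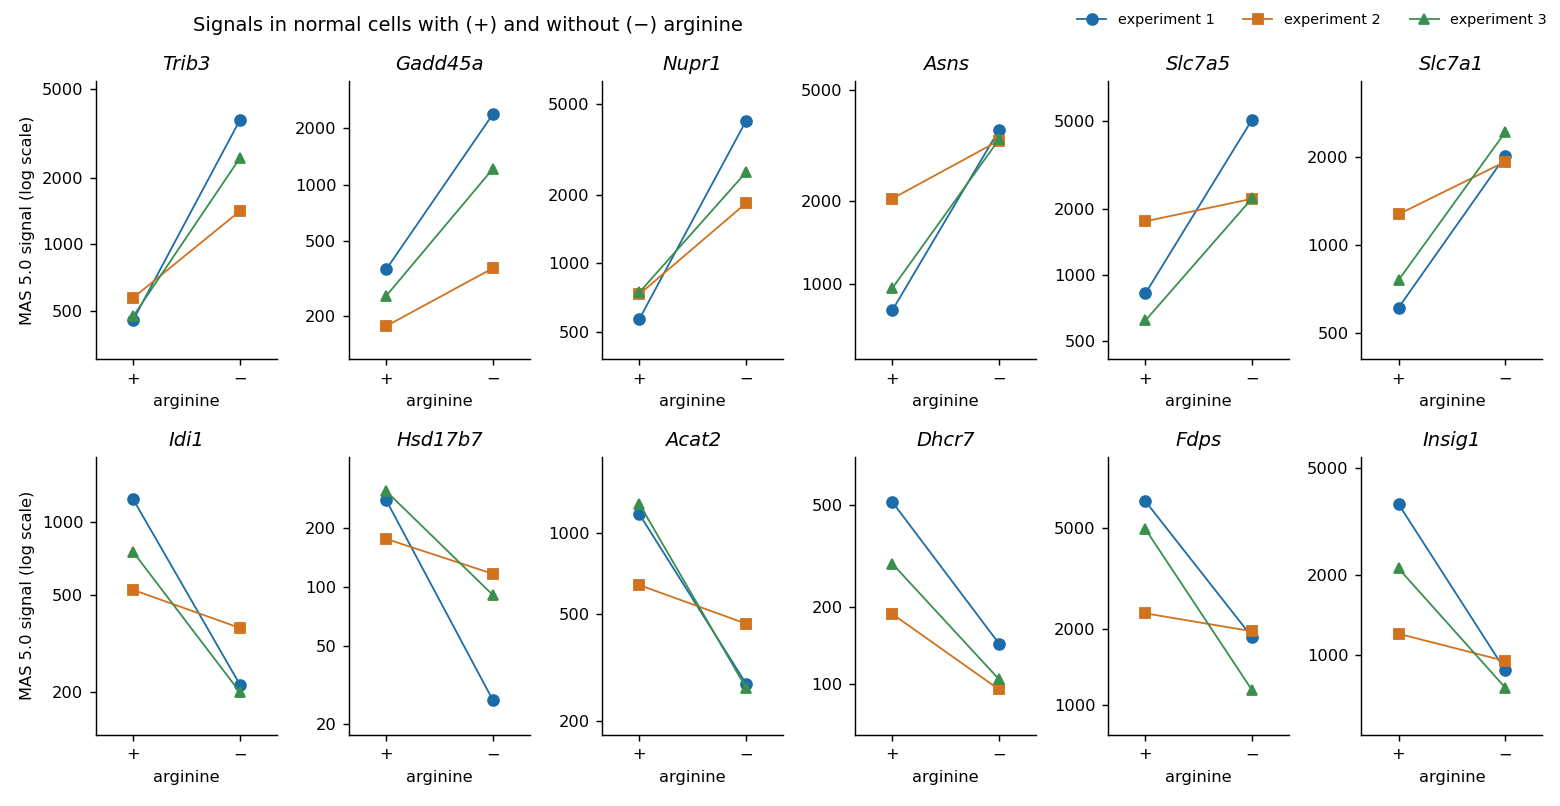
MAS 5.0 signals on a log axis for 12 genes in normal cells with (+) and without (-) arginine, 1 probe set per gene, with a line joining the cultures of each of the 3 experiments. The upper genes rose and the lower genes fell in all 3 experiments, and the line of experiment 2 is the flattest in each of the 12 panels.

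Amino acid transporters formed the second group. Of 27 listed, 11 were tested, 5 rose and 1 fell, and the median log2 change was 0.51. Slc7a5, the light chain of the LAT1 exchanger for large neutral amino acids, had signals of 822, 1751 and 618 with arginine and 5090.1, 2219 and 2229 without. The (-) cultures of experiments 2 and 3 were nearly level, while the (+) culture of experiment 2 stood well above the other (+) cultures. The rise was 3.05-fold (1.61 ± 0.29, adjusted p = 0.0146), with log2 changes of 2.63, 0.34 and 1.85 in the 3 experiments. Slc3a2, the heavy chain that carries LAT1 to the membrane, went from 2866, 3360.1 and 3417 to 8644, 5162 and 4696, a rise of 1.85-fold (adjusted p = 0.027). Slc7a1, the cationic transporter CAT-1 that takes up arginine itself, went from 609.5, 1275 and 758 to 2015, 1931 and 2435. Its groups were apart, and it rose 2.52-fold (1.34 ± 0.19, adjusted p = 0.00456). A second probe set for Slc7a1 rose 2.3-fold, and the third was not tested, since it reached the expressed range in fewer than 3 arrays.

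Slc6a9, the glycine transporter GLYT1, rose 1.75-fold, although its (+) signal in experiment 1, 926, was above its (-) signal in experiment 2, 902, and 2 further probe sets did not pass (adjusted p = 0.22 and 0.0795). Slc38a2, the sodium-coupled neutral transporter SNAT2, rose 1.62-fold. Slc7a6, another light chain that pairs with Slc3a2, fell by 0.69 on the log2 scale, from 1092, 629.6 and 1001 to 565, 501 and 579.9 (adjusted p = 0.0438). Slc7a8, the light chain of LAT2, had signals of 289, 384 and 675 with arginine and 408, 443 and 491 without. The groups overlapped, the experiments disagreed in direction, and the gene did not pass (0.08 ± 0.34, adjusted p = 0.926). Light chains that share the heavy chain Slc3a2 thus differed in direction in these cells. Among list members outside the expressed range were Slc7a2, Slc7a3 and Slc7a7, further transporters of cationic amino acids. Without experiment 1, without experiment 3, or without an intensity trend in the variance, 0 members of this list passed, and without experiment 2 the number that rose was 5.

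Enzymes of amino acid and one-carbon synthesis moved both ways. Of 25 listed, 16 were tested, with 6 that rose, 1 that fell and a median log2 change of 0.51. Asns, asparagine synthetase, had signals of 807, 2037 and 969.6 with arginine and 3599, 3296 and 3326 without. The (-) cultures were almost level with each other, and the spread lay in the (+) cultures, with experiment 2 highest. The rise was 2.91-fold (1.54 ± 0.22, adjusted p = 0.00438). In the serine and sulfur branch Psph, the last enzyme of serine synthesis, rose 2.59-fold, Phgdh, the enzyme that commits carbon to serine, rose 2.03-fold, and Shmt2, the mitochondrial hydroxymethyltransferase, rose 1.85-fold. Cth, which makes cysteine from cystathionine, went from 282, 682 and 368 to 1228, 1120.3 and 1067, a rise of 2.75-fold without overlap. Mthfd2, the mitochondrial folate enzyme, went from 517, 806 and 523 to 1371, 1594 and 1633, with log2 changes of 1.41, 0.98 and 1.64 (2.54-fold, adjusted p = 0.00071). Shmt1, the cytosolic counterpart of Shmt2, fell by 0.66 on the log2 scale, from 1762, 1959 and 1961 to 1304, 1446 and 919.5 (adjusted p = 0.0417). Psat1, the other enzyme of serine synthesis, had a log2 change of 0.55 and missed the threshold (adjusted p = 0.0548). Of the 7 tested genes for asparagine, glutamate and proline only Asns passed: Glul, Oat, Glud1 and Got2 had log2 changes between -0.38 and -0.06, and Got1 and Aldh18a1 had 0.48 and 0.32. Without experiment 1 or without experiment 3 only 1 member of this list rose, and without experiment 2 the number was 9.

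Cytosolic aminoacyl-tRNA synthetases, which charge transfer RNA, moved by small amounts. All 19 on the array were tested, 7 rose and 0 fell, the median log2 change was 0.40, and 12 were higher in all 3 experiments. Yars1 (tyrosine) went from 755, 1509 and 1121 to 2151, 1852 and 2016 and rose 1.85-fold, Wars1 (tryptophan) and Sars1 (serine) rose 1.69-fold each, and Gars1 (glycine) rose 1.63-fold. Eprs1, Aars1 and Cars1 were the other members that rose, by 1.61-fold, 1.59-fold and 1.58-fold. Rars1, which charges the arginine transfer RNA, had a log2 change of 0.30 and did not pass (adjusted p = 0.187). Hars1, Qars1 and Farsa lay below 0, with log2 changes of -0.48, -0.23 and -0.12. Without experiment 1 the list had 0 members that rose, without experiment 3 it had 1, and without experiment 2 it had 7.

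Promoters of the genes of these 4 lists were read for the core of the amino acid response element, TGATGNAA, on both strands, in the 300 bases that run from 250 before to 50 after each RefSeq start (rat build GRCr8). The letters occurred at 4.16% of the 27457 genes with a promoter in that table and at 1.96% of the 5556 tested genes that have one. They occurred at 15 of 102 genes that rose with a promoter in the table (14.7%) and at 0 of 93 that fell. By list the share was 6 of 21 ATF4 genes, 7 of 17 synthetases, 2 of 10 transporters and 1 of 14 synthesis enzymes, counting all tested members, called or not. Among members past the test in either direction it was 5 of 15, 3 of 6, 1 of 6 and 0 of 7, in the same order. The 6 stretches of 100 bases shown here belong to genes that rose in these lists and hold the match before the start of the gene, and they show how its position and strand vary between genes. Capitals mark the match, and each stretch is written 5' to 3' on the strand of its gene.
Nupr1: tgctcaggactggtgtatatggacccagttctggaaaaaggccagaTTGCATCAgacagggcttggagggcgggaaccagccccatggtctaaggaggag
Trib3: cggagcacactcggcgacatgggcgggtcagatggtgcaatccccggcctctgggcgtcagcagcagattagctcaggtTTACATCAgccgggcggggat
Chac1: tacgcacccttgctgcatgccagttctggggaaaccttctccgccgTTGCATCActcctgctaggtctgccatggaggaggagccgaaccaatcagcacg
Herpud1: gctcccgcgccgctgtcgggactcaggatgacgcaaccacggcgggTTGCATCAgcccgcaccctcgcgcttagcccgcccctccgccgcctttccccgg
Slc7a1: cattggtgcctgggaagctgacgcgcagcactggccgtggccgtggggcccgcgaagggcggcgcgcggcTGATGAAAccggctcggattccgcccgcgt
Aars1: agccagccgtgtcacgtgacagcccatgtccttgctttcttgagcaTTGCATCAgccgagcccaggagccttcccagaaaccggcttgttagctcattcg
The stretches lie at chr1:190645903-190646002 (minus strand) for Nupr1, chr3:161275534-161275633 (minus) for Trib3, chr3:126795918-126796017 (plus) for Chac1, chr19:10614838-10614937 (minus) for Herpud1, chr12:11664388-11664487 (plus) for Slc7a1 and chr19:55908324-55908423 (plus) for Aars1. Only the Slc7a1 match reads on the strand of its gene, and the others read on the opposite strand. The last base of the match lies 14 bases before the start in Trib3 and 23 bases before it in Slc7a1, and in Chac1 and Herpud1 it lies 160 and 177 bases before it. The 2 other matching genes of these lists that rose, Cars1 and Yars1, hold it after the start. Asns, Cth and Psph do not hold these letters in this window. A match describes the sequence and not a bound site.

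Chaperones of the endoplasmic reticulum did not follow Herpud1. Of 31 genes listed for folding, degradation and sensing there, 27 were tested, 2 rose and 1 fell, and the median log2 change was 0.05. The second that rose was Ero1a, the oxidase that restores disulfide formation, from 359, 821 and 567 to 712, 956 and 993 (1.59-fold, adjusted p = 0.044), with overlapping groups and a second probe set at -0.13. Derl2, a channel component of degradation, fell by 0.68 on the log2 scale, from 382, 448 and 497 to 273, 279 and 271. The main chaperones Hspa5 (BiP), Hsp90b1 and Calr had log2 changes of 0.32, 0.08 and -0.25, and Xbp1 had 0.42, none past the test.

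**Figure D2:**
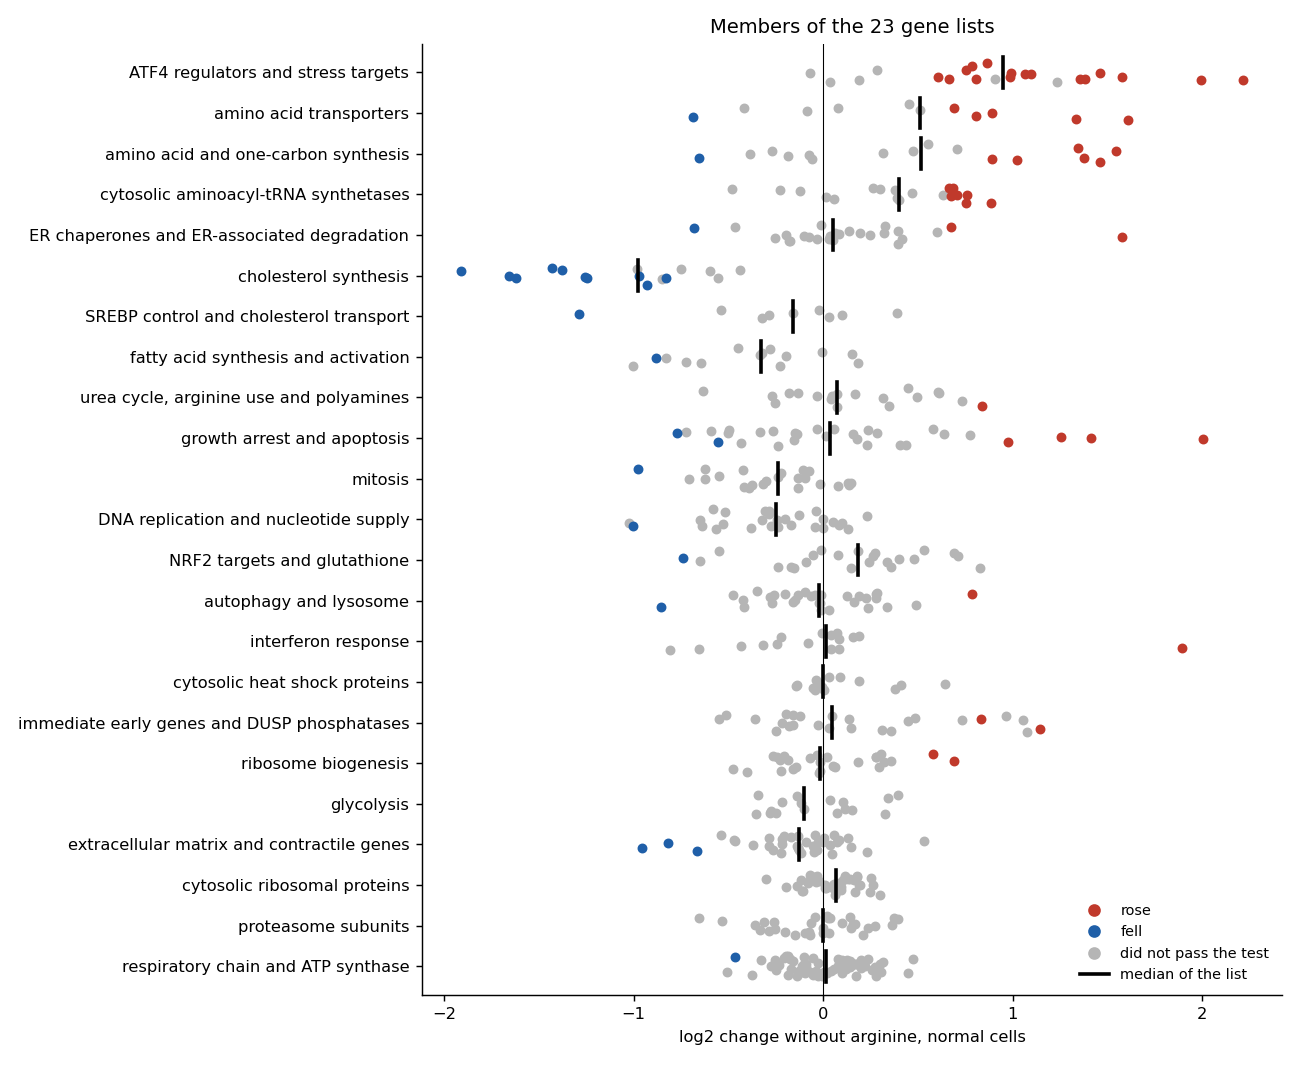
Log2 change without arginine in normal cells for each tested member of the 23 gene lists, 1 probe set per gene, with members that rose in red, members that fell in blue and those that did not pass in grey, and a bar at the median of each list. The medians reach 0.95 for the ATF4 list and -0.98 for cholesterol synthesis, and most other lists lie near 0.

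Cholesterol synthesis was the group that fell. Of 22 enzymes listed 16 were tested, and 10 fell, 0 rose, all 16 had a negative change and 14 were lower in all 3 experiments, with a median log2 change of -0.98. In the mevalonate branch, Acat2, which joins acetyl-CoA units at the entry of the pathway, had signals of 1181, 642 and 1290.0 with arginine and 275, 461 and 266 without. The groups were apart, with experiment 2 lowest of the (+) cultures and highest of the (-) cultures, and the fall was 3.07-fold (adjusted p = 0.0113). Idi1, the isopentenyl isomerase, went from 1243, 526 and 754 to 214, 367 and 199 on its brighter probe set (3.16-fold lower, limma adjusted p = 0.0148). The other went from 695, 616 and 537 to 84.6, 310.4 and 106, the largest fall of any named probe set (4.35-fold, log2 change -2.12 ± 0.33, limma adjusted p = 0.00737). Of the (-) signals on that other probe set only that of experiment 2 reached the expressed range. Fdps, which makes farnesyl pyrophosphate, went from 6382, 2304 and 4954 to 1857, 1957 and 1145. It was 2.6-fold lower without overlap (-1.38 ± 0.26, adjusted p = 0.0169), although experiment 2 alone gave only -0.24. The mevalonate kinases Mvk and Pmvk had log2 changes of -0.60 and -0.55 and did not pass.

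In the sterol branch Hsd17b7, a ketosteroid reductase, went from 276, 176 and 307 to 26.5, 117 and 91.0, and its (-) signals lay under the expressed range in all 3 experiments (3.76-fold, -1.91 ± 0.41, adjusted p = 0.0304). Dhcr7, the last enzyme of the pathway, went from 512, 188 and 294 to 144, 95.6 and 105. The (-) cultures were all under every (+) culture, and the fall was 2.7-fold (limma adjusted p = 0.00792). Its (-) signals too lay under the expressed range in all 3 experiments, so the size of the fall rests on dim signals. Msmo1 and Cyp51, which remove methyl groups from the sterol ring, fell by 1.26 and 1.24 on the log2 scale, and Fdft1, squalene synthase, Ebp, the sterol isomerase, and Sc5d, the sterol desaturase, fell by 0.97, 0.93 and 0.83. Lss, Sqle, Tm7sf2 and Lbr had log2 changes of -0.98, -0.85, -0.75 and -0.44 and did not pass (adjusted p = 0.0879, 0.205, 0.474 and 0.19). Tm7sf2 and Pmvk were the only members that went up in any experiment, both in experiment 2, by 0.77 and 0.22. The list had 12 members that fell without experiment 2 and 0 without experiment 1 or without experiment 3. It had 6 with scan day in place of the pairs, 3 with no filter on low signals, and 1 both without pairing and without an intensity trend in the variance.

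**Figure D3:**
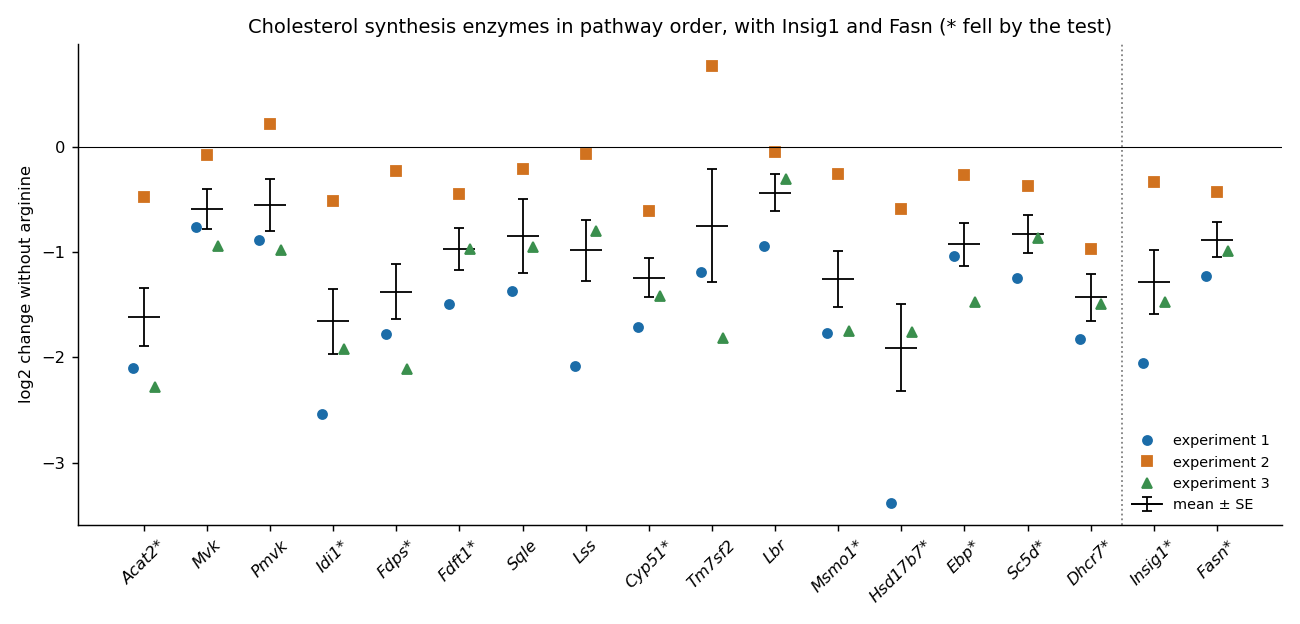
Log2 change without arginine for the 16 tested cholesterol synthesis enzymes in pathway order, and to the right of the dotted line Insig1 and Fasn, with a point per experiment and the mean ± SE of the limma fit. Experiments 1 and 3 lie below 0 for every gene shown, experiment 2 has the smallest change for every gene shown, and asterisks mark genes that fell by the test.

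The regulators of that pathway moved less. Of 9 tested genes of SREBP control and cholesterol transport only Insig1 passed, the sterol-sensing anchor that is itself an SREBP target. Insig1 had signals of 3664, 1204 and 2108 with arginine and 882, 953 and 759 without. All (-) cultures were under all (+) cultures, and the fall was 2.44-fold (-1.29 ± 0.30, adjusted p = 0.0416). Srebf2 and Srebf1, the SREBP genes, had log2 changes of -0.54 and -0.29 and did not pass (adjusted p = 0.234 and 0.419), and Scap and Insig2 were at 0.03 and -0.02. Fatty acid genes, which share SREBP control, had 1 member of 14 that fell and a median of -0.33, with 12 of 14 below 0. That member was Fasn, fatty acid synthase, which went from 2640.5, 1816 and 2023 to 1129.6, 1345 and 1019 (1.84-fold, adjusted p = 0.0162), while its second probe set was at -0.40 and did not pass. Acsl3, which activates fatty acids, and Fads2, a desaturase, had log2 changes of -0.83 and -0.72 and did not pass. The sterol response element letters TCACNCCAC, read on both strands, were found in 0 of 13 promoters of tested cholesterol synthesis genes and in 1.25% of all genes with a promoter, which says only that these letters are not in this window.

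Genes of arginine use and polyamine metabolism had few calls. Of 29 genes of the urea cycle, arginine use and polyamine metabolism, 19 were tested and 1 rose, with a median log2 change of 0.07. It was Azin1, the antizyme inhibitor that protects ornithine decarboxylase, from 586, 624 and 599.6 to 1308, 867 and 1109 (1.79-fold, adjusted p = 0.0297), and its second probe set was at 0.39 and did not pass. Arg1, the liver arginase, had signals of 496, 923 and 487 with arginine and 350.2, 603 and 283 without. It was lower in every experiment but the groups overlapped and it did not pass (-0.63 ± 0.21, adjusted p = 0.125). Odc1, Sat1 and Sms, enzymes of polyamine synthesis and breakdown, had log2 changes of 0.45, 0.50 and 0.61 (adjusted p = 0.0816, 0.085 and 0.0677), and Asl, argininosuccinate lyase, had 0.17. Ass1, Otc and Cps1, further urea cycle enzymes, were outside the expressed range in these cells.

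Growth arrest and apoptosis genes moved both ways. Of 30 tested 4 rose and 2 fell, and the median was 0.04. Gadd45a, a growth arrest gene induced by DNA damage and by ATF4, had signals of 355, 177 and 256 with arginine and 2381, 359.5 and 1218 without. The (-) culture of experiment 2 was only just above the (+) culture of experiment 1, while experiments 1 and 3 gave large rises, and the mean rise was 4.02-fold (2.01 ± 0.24, adjusted p = 0.00175). Gadd45b and Gadd45g, of the same family, had log2 changes of -0.50 and -0.15 and did not pass. The inflammatory caspase Casp4 went from 356, 263 and 355 to 1404, 464 and 963 (2.66-fold, adjusted p = 0.00456), and Casp12, a caspase tied to the endoplasmic reticulum, went from 549.8, 607 and 589.6 to 1749, 995 and 1531 (2.38-fold, adjusted p = 0.00438), both without overlap. Casp2, Casp8 and Casp9, caspases that start apoptosis, had log2 changes of 0.23, -0.24 and 0.06.

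Id2, an inhibitor of helix-loop-helix factors, responded in experiment 2 as much as in the others. It went from 569.7, 395 and 575 to 1044, 833 and 1135, with log2 changes of 0.87, 1.08 and 0.98 (1.97-fold, adjusted p = 0.00409), and its second probe set was at 0.61 and did not pass (adjusted p = 0.068). Id1 and Id3 were at 0.02 and -0.03. Cdkn1a, the p21 inhibitor of cyclin-dependent kinases, fell on both of its probe sets. On the brighter probe set it went from 2669, 2257 and 2266 to 1239.9, 1699.6 and 1299, with every (-) culture under every (+) culture (1.71-fold, adjusted p = 0.0146). Ccng1, cyclin G1, a p53 target like Cdkn1a, fell 1.47-fold, and a further p53 target, Mdm2, had -0.50 and did not pass. Cdkn1b, the related p27 inhibitor, had 0.64 and did not pass (adjusted p = 0.0745).

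Cell division genes had negative medians with few calls. Over all 6547 genes tested, 3619 were below 0 and 1552 were lower in all 3 experiments. Of 23 mitosis genes 1 fell, 19 were below 0 and the median was -0.24, with medians by experiment of -0.68, 0.08 and -0.17. The gene was Aurkb, the kinase of the chromosomal passenger complex, from 705, 726 and 338 to 225, 579 and 175 (1.97-fold, adjusted p = 0.0334), with overlapping groups. Of 29 DNA replication and nucleotide genes 1 fell, and 16 were lower in all 3 experiments, with a median of -0.25. The gene was Tk1, thymidine kinase, from 1706, 2893 and 1449 to 779, 2167 and 526 (2.0-fold, adjusted p = 0.0404), and its second probe set was at -0.83 and did not pass (adjusted p = 0.125). Each of the replicative helicase subunits tested, Mcm2 to Mcm7, had a log2 change between -0.38 and -0.17, and none passed.

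In several other lists 1 to 3 members passed. Sqstm1, the autophagy receptor p62, rose 1.73-fold on its brightest probe set, from 2256, 1703 and 2812 to 4286, 2550.5 and 5083, while 2 more tested probe sets were at -0.22 and 0.06 and did not pass. Gla, a lysosomal galactosidase, fell 1.81-fold, and among 31 autophagy and lysosome genes these were the only calls. Myc, a growth-promoting transcription factor, went from 136, 370.5 and 203 to 398, 467 and 593 (2.21-fold, adjusted p = 0.0217), and Klf4, a zinc finger factor, rose 1.78-fold, the 2 calls among 25 immediate early genes and phosphatases, where Fos, Egr1 and Junb were at 1.06, 0.05 and -0.12 and did not pass. Wdr43 and Nop58, both nucleolar proteins, rose 1.62-fold and 1.49-fold among 27 ribosome biogenesis genes. The median of that list was -0.02 and turned to 0.07 when arrays were centred on their medians.

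Matrix and contractile genes had 3 members of 37 that fell. Tnc, the matrix glycoprotein tenascin C, fell 1.94-fold with overlapping groups. It reached the expressed range in only 2 of the (+) arrays and 1 of the (-) arrays. Itgb5, an integrin chain, fell 1.76-fold, also with overlapping groups and with only -0.08 in experiment 2. The second probe set for Itgb5 was at -0.38 and did not pass (adjusted p = 0.268). Cald1, the actin-binding caldesmon, fell 1.59-fold and 1.6-fold on its tested probe sets. Collagens Col1a1 and Col3a1 were at -0.17 and -0.21. Of 23 NRF2 and glutathione genes only Ephx1, an epoxide hydrolase, passed, with a fall of 1.67-fold, and of 70 respiratory chain genes only Uqcrh, a subunit of complex III, with a fall of 1.38-fold. Heat shock, glycolysis, ribosomal protein and proteasome genes had 0 calls in 14, 17, 41 and 32 tested by limma, with medians of -0.00, -0.10, 0.07 and 0.00. The largest rises and falls there were Hspa4 at 0.64 and Bag3 at -0.14, Slc2a1 at 0.40 and Pfkp at -0.35, Rpl37a at 0.30 and Rpl4 at -0.30, and Psma6 at 0.40 and Psmb9 at -0.66. These are a chaperone and a cochaperone, a glucose transporter and a phosphofructokinase, ribosomal proteins of the large subunit, and subunits of the constitutive and of the immune proteasome. Of 16 interferon response genes 1 rose, Ifi27l2b, which encodes a small protein of the ISG12 family and had one of the largest rises of all, from 1421, 1618 and 1201 to 9126, 2536 and 6089 (3.71-fold, adjusted p = 0.00662), while the median of the list was 0.02.

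A few of the largest changes belonged to no list. The largest rise of all was on a probe set without a symbol, from 83.2, 29.9 and 71.7 to 459.5, 173 and 391. It was nearly equal in the 3 experiments, with log2 changes of 2.47, 2.53 and 2.45 (adjusted p = 0.00071), and its (+) signals were under the expressed range. Syncrip-ps2, annotated as a pseudogene of the RNA-binding protein gene Syncrip and so open to signal from its parent, rose 2.72-fold. Among falls, Bcr, a GTPase-activating protein and kinase, went from 515, 305 and 425 to 92.8, 144 and 254 without overlap (2.7-fold, limma adjusted p = 0.0223). Of its (-) signals only that of experiment 3 reached the expressed range. Crem, a cyclic AMP-responsive factor, went from 272, 248 and 261 to 65.2, 130.4 and 117 (2.6-fold, limma adjusted p = 0.0498), with all (-) signals under the expressed range. Ascc2, a helicase-complex subunit, fell 2.56-fold. Col12a1, a fibril-associated collagen, fell 2.67-fold on a probe set whose groups overlapped, since experiments differed in level, and its brighter probe set was at -0.70 and did not pass (adjusted p = 0.0616). Ablim1, an actin-binding protein, went from 117, 241 and 725 to 29.9, 127 and 343, again with more spread between experiments than between conditions (2.5-fold, limma adjusted p = 0.0259). It reached the expressed range in only 2 of the (+) arrays and 1 of the (-) arrays.

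The tumor cells offer a comparison under the same medium. Of the 152 probe sets that rose in normal cells 137 had a positive change in tumor cells, with a median log2 change there of 0.78 against 0.84, and of the 112 that fell 92 had a negative change there, with a median of -0.31 against -0.83. The members were selected in normal cells, and only the test of the difference bears on a gene. That test, the response in normal minus the response in tumor cells, passed for 5 of 8786 probe sets (0.0569%), and 1203 had an unadjusted p under 0.05. Among genes that responded in normal cells it passed for Rgs2 and Il1rl1. Rgs2, a regulator that shortens G protein signals, went from 535.0, 959.8 and 1398 to 1076, 1899.5 and 3178 in normal cells. Levels differed between experiments and the groups overlapped, but the change was alike, at 1.01, 0.98 and 1.18 (2.08-fold, 1.06 ± 0.13, adjusted p = 0.0021), while the change in tumor cells was -0.18, a difference of 1.24 ± 0.18 (adjusted p = 0.0266). The second probe set for Rgs2 rose 2.33-fold in normal cells with a difference of 1.36 that did not pass (adjusted p = 0.108). Il1rl1, the receptor for interleukin-33, fell 1.95-fold in normal cells, from 252, 486 and 310.2 to 114, 306 and 146, and rose by 0.73 in tumor cells. The difference was -1.70 ± 0.25 (limma adjusted p = 0.0266). Its groups overlapped in normal cells, and of the (-) signals there only that of experiment 2 reached the expressed range.

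**Figure D4:**
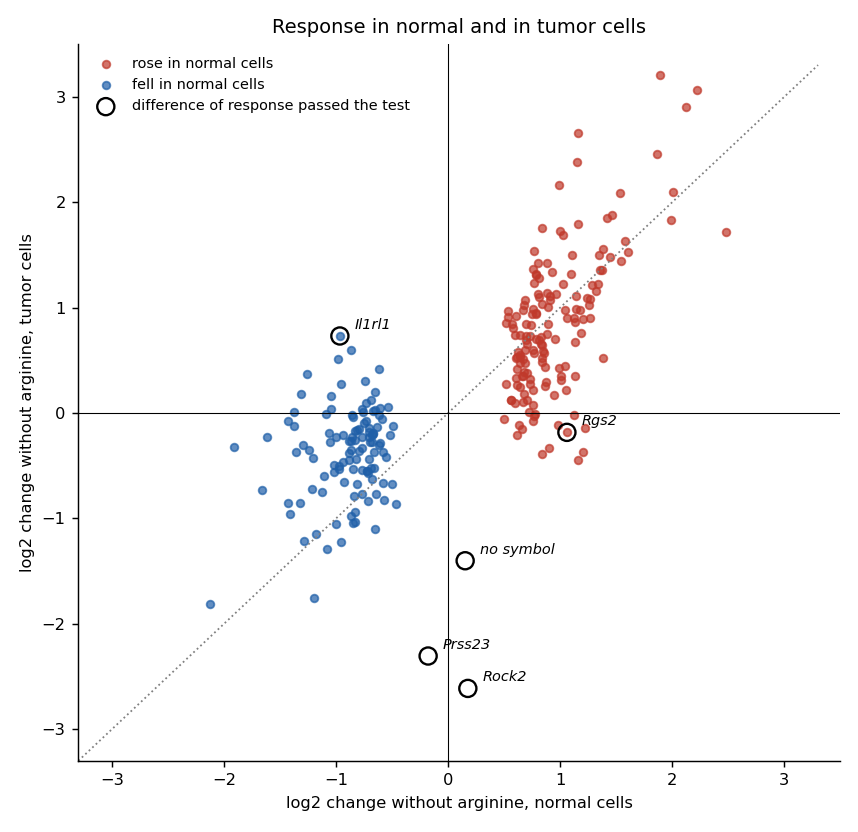
Log2 change without arginine in normal cells against that in tumor cells for the probe sets that rose (red) or fell (blue) in normal cells, with circles around the 5 probe sets whose difference of response passed the test and a dotted line of equal response. Il1rl1 and Rgs2 lie off the line among the called probe sets, and Prss23, Rock2 and a probe set without a symbol lie near 0 in normal cells.

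The other 3 differences came from tumor cells. Prss23, a serine protease, was level in normal cells, at 7699.9, 8759.8 and 8748 with arginine and 7150.1, 9016 and 6307 without (log2 change -0.18 ± 0.18), and had -2.31 in tumor cells. Rock2, a serine/threonine kinase, had 0.18 ± 0.24 in normal cells and -2.61 in tumor cells on 1 probe set, and its 2 other probe sets had differences of 0.36 and 0.31 that did not pass. A probe set without a symbol had 0.15 and -1.40. For the leading groups no difference passed: Trib3 changed by 2.22 and 3.07 in normal and tumor cells (difference -0.85, adjusted p = 0.278), Asns by 1.54 and 1.44 (0.10, adjusted p = 0.913) and Slc7a5 by 1.61 and 1.53 (0.08, adjusted p = 0.955). Among sterol genes Fdps was at -1.38 and 0.01 (difference -1.39, adjusted p = 0.134), Msmo1 at -1.26 and 0.37 (-1.62, adjusted p = 0.108) and Insig1 at -1.29 and -1.22 (-0.07, adjusted p = 0.964). Id2 was at 0.98 and -0.12, and its difference of 1.09 missed the threshold (adjusted p = 0.0536). The number of differences that passed moved with the processing, from 0 without pairing (limma; 462 had an unadjusted p under 0.05) to 54 without tumor experiment 3. The pairing of the tumor arrays, which enters this test and the estimate of the spread, is inferred from the title numbers, and tumor experiment 2 showed little sign of it, with a correlation of 0.0441 between its arrays. The scan records note trypsin for tumor experiments 1 and 3 and no trypsin for tumor experiment 2, with no such note for normal cells, and the part of that handling in these differences was not tested.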

How the data were processed

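Signals of RAE 230A arrays (Affymetrix) were deposited by the authors as intensity values per probe set, made with Microarray Suite 5.0 and scaled so that every array has a trimmed mean near 500; no counts exist, and the number of arrays limits the precision. Of 15923 probe sets, 57 controls were dropped. Testing was limited to the 8786 probe sets that 3 or more arrays of normal cells placed in the top 54% of signals. Signals under 1 were set to 1 and taken to log2. Symbols came from the platform annotation: 12777 probe sets had 1 symbol, 311 several and 2778 none.

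The fit used limma 3.58.1 (R 4.3.3; lmFit, eBayes with an intensity trend, 2-sided) on all 12 arrays with the experiment as a block and a separate response for normal and tumor cells, leaving 4 residual degrees of freedom; p-values were adjusted by Benjamini-Hochberg over all probe sets tested. Experiments are the title pairs, and deviations from the group means correlated within each pair of normal arrays (0.498, 0.467 and 0.431). Between pairs the correlations were -0.326 to -0.165. Deviations within a group sum to 0, so these values must offset those within pairs and add no support. The arrays of experiments 1 and 3 each shared 1 scan day and 1 chip lot within the pair, and the part of that in the correlations was not tested. Tumor arrays were paired by title number in the same way with weaker support: their pairs correlated at 0.584, 0.0441 and 0.441, and arrays of different pairs at -0.561 to 0.3. The p-values rest on how far the (-) minus (+) changes vary between experiments, pooled over normal and tumor pairs, and on a prior. The prior is the spread expected at a probe set's intensity, estimated by eBayes from all probe sets tested. Its median was 8.75 degrees of freedom against 4 residual ones, so at that median it outweighed the probe set's own variation. An SE can thus be small where experiments differ: Gadd45a had log2 changes of 2.75, 1.02 and 2.25 and an SE of 0.24. Differences in level between experiments are taken up by the block and do not enter. The script was tested on simulated data.

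Each gene of a list is represented by its probe set with the highest mean signal over the 6 arrays. Named genes were the 10 largest rises and falls, up to 4 called members per list (or the largest rise and fall where none passed), genes the study names for these cells, and genes whose response differed from tumor cells; others were named after their values were seen. The members and lists were chosen with earlier results of these data known. Promoters are RefSeq sequences of build GRCr8. Run records of the scans were used only for scan day, chip lot, handling notes and pairing.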

Additional observations from a re-analysis of the deposited data

Results flagged for a closer look

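The response to arginine withdrawal differed between normal and tumor cells, by the limma test of the difference itself, for 5 probe sets. In normal minus tumor cells the difference in log2 change was 2.79 for Rock2 (adjusted p = 0.00627; 0.18 in normal and -2.61 in tumor cells), 2.13 for Prss23 (-0.18 and -2.31), 1.55 for the probe set without a symbol (0.15 and -1.40), 1.24 for Rgs2 (1.06 and -0.18) and -1.70 for Il1rl1 (-0.97 and 0.73). The other 2 tested probe sets for Rock2 had differences of 0.36 and 0.31 and did not pass. Each value rests on 3 experiments per cell type, and the cell types were scanned on separate days, so scan day and cell type cannot be told apart.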

How the results depend on the processing

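Numbers that rose and fell (152 and 112) and numbers that differed from tumor cells (5) moved with several choices, and the cause was not tested. They were 8, 1 and 0 with no replicate block, 26, 9 and 0 with scan day as a block, 49, 24 and 0 with no filter on low signals, and 18, 6 and 1 with no intensity trend. Raising low signals to the expressed threshold gave 231, 200 and 26. Median centring gave 65 that fell. The differences numbered 25 with the stricter filter (highest 40%) and 25 with an offset of 16 added before log2. Leaving out an experiment of normal cells gave 16 to 264 that rose, 0 to 207 that fell and 3 to 22 differences, and leaving out an experiment of tumor cells gave 101 to 130, 60 to 87 and 1 to 54. Where 0 differences passed, 462, 575 and 1658 had an unadjusted p under 0.05 (limma, same order). With 0 that fell (without experiment 1, limma), 529 were lower at an unadjusted p under 0.05. Members of the ATF4 list that rose (16) were 4 with no replicate block, 5 with scan day, 5 with no intensity trend, and 5 to 15 when an experiment of normal cells was left out. Cholesterol synthesis members that fell (10) were 1, 6 and 1 under those settings, 3 with no filter, and 0 to 12 when an experiment of normal cells was left out. All 152 and 112 kept their sign in the 12-array fits without pairing, with scan day, and without each experiment. Each had moved the same way in all 3 experiments, and dropping the block leaves the mean change as it was. The fits without pairing or without an experiment therefore could not turn a sign. The 59 called probe sets of named genes kept their sign in all 996 values under the alternatives, of which 665 passed the threshold. Many of those alternatives repeat the same log2 change and alter only its SE or adjusted p-value. Values that turned were Slc7a8 (-0.13 without experiment 1 to 0.35 without experiment 3), the brightest Rock2 probe set (0.072 with scan day) and the ribosome biogenesis median (0.071 with median centring), none of them past the test. Averaging all probe sets of each gene moved the ATF4 median to 0.89 and the cholesterol synthesis median to -0.96. The precision is limited by 3 experiments and, for dim probe sets, by how far their signal stands above the expressed threshold.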

Other observations

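The genes here were chosen after their values were seen, and no group of them was tested. Among called genes with a part in the cytoskeleton some fell and some rose. Actn1, the cross-linker alpha-actinin, went from 4259, 3370.2 and 3370.5 with arginine to 2159, 2513 and 2054 without (1.63-fold, limma adjusted p = 0.0278). Pfn1, profilin, fell 1.41-fold, and the Arp2/3 subunits Arpc4 and Arpc1a fell 1.45-fold and 1.5-fold. Tubb6, a tubulin, went from 6063, 8382 and 5253 to 1875, 6888 and 2486 (2.03-fold), least in experiment 2. Tubb3, another tubulin, rose 2.43-fold, and Ajuba, an actin-associated LIM protein, and Pacsin2, a membrane-shaping protein, rose 1.69-fold and 1.51-fold. Smad7, an inhibitor of TGF-beta signals, went from 883, 782 and 705 to 507, 417 and 262 without overlap (2.06-fold, adjusted p = 0.0129), and its change in tumor cells was 0.04 (difference -1.08, adjusted p = 0.108).

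Called genes for mitochondrial proteins also moved both ways. Hspa9, the mitochondrial chaperone mortalin, rose 1.76-fold and 1.74-fold on its probe sets, and Lonp1, the mitochondrial protease, went from 719, 975 and 792 to 1487, 1458 and 1264 (1.7-fold, adjusted p = 0.0217). Pck2, the mitochondrial phosphoenolpyruvate carboxykinase, rose 1.95-fold, and Ghitm, a protein of the inner membrane, rose 2.15-fold. Timm17a, a subunit of the import channel of the inner membrane, fell 1.5-fold, and Uqcrh of complex III fell 1.38-fold. Tsc22d3, a glucocorticoid-induced leucine zipper protein, went from 1086, 322 and 726 to 2378, 784 and 1588, with log2 changes of 1.13, 1.28 and 1.13 (adjusted p = 0.00071). The arrestin-family genes Txnip and Arrdc3 rose 1.66-fold and 1.78-fold, and the kinase gene Sgk1 rose 1.56-fold.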
